A study of Homo sapiens with 8 samples.

Results

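KLF3, KLF6, ELF2 and NFKB2 are 4 transcription factor genes that appear in lists of regions deposited with a series on RNA immunoprecipitation of eIF4G2. This protein is a translation initiation factor of the eIF4G family that does not bind the cap-binding protein eIF4E. They were chosen by gene name with the lists known, keeping every region that lies inside one of these genes or overlaps it, and they account for 17 of 3210 listed regions and for 4 of 861 genes with a region. The series used RNA immunoprecipitation followed by sequencing (RIP-seq) with an eIF4G2 antibody. The cells were IHCF, a line of immortalized cardiac fibroblasts of human origin. They were infected with a lentiviral vector for full-length eIF4G2 (overexpression) or with a scramble vector (control). Total RNA and eIF4G2-bound RNA of each condition were sequenced as 2 biological replicates, which makes 8 libraries in 4 groups. The authors deposited 1 list of regions per condition, with 1224 regions for control cells and 1986 for overexpressing cells, and the name of each table alone tells its condition. MOV10, an RNA-binding protein absent from the sample labels, is also part of both table names, for a reason not given. Which protein the listed regions were bound to is therefore not settled by the lists alone.

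The lists give positions on GRCh38 and the Ensembl transcripts under them, with no read count, score, p-value or value per replicate. The depth behind each region is therefore unknown, and differences between the lists stand without replicates. Because the 4 genes were chosen by their presence in these lists, that presence is a description and not a finding. Most listed regions lie on chromosomes 4, 10 and 18, and the lists differ strongly between chromosomes, so each gene is read against its own chromosome. EIF4G2 had no region in either list, and neither had any of 10 fibroblast marker genes, 3 of which lie on chromosomes 4, 10 or 18. Neither the overexpression nor the labelled cell type could therefore be checked from the lists.

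The 4 genes belong to 3 families of DNA-binding proteins. KLF3 and KLF6 are Krüppel-like factors, zinc finger proteins that bind GC-rich and CACCC-type promoter elements. KLF3 acts mostly as a repressor through the corepressors CTBP1 and CTBP2, while KLF6 is an early response gene that is switched on by injury and growth signals, in fibroblasts among other cells. ELF2 is a member of the ETS family, whose proteins recognise a GGAA core. NFKB2 encodes p100, which holds the factor RELB inactive until it is processed to the subunit p52 in the non-canonical NF-kB pathway.

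KLF3, KLF6 and NFKB2 were listed for overexpressing cells and not for control cells, and ELF2 was listed for both. On KLF3 and NFKB2 the regions lay at the end of the gene, on KLF6 at its start. On ELF2 most of the listed length lay beyond the end of the RefSeq gene, next to the neighbouring gene NOCT on the opposite strand.

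A start site came under a region for KLF6 and for ELF2, and the sequences around them are shown because the position of these regions sets them apart from the other 15. Both are RefSeq start-site windows of GRCh38.p14, from 250 bases before to 50 bases after the start, read on the minus strand, 5′ to 3′. The KLF6 window, chr10:3785160-3785459, lies wholly under the overexpression region of KLF6, and the capitals mark matches to the GC box GGGCGG. The ELF2 window, chr4:139084175-139084474, belongs to an internal start of the gene, and the capitals mark the 186 bases under a control region of ELF2.
KLF6: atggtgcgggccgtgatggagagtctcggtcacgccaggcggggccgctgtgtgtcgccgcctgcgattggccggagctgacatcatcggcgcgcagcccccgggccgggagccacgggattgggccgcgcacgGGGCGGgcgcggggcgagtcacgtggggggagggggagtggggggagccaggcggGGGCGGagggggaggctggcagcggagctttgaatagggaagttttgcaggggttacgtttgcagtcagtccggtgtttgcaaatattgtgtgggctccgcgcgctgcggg
ELF2: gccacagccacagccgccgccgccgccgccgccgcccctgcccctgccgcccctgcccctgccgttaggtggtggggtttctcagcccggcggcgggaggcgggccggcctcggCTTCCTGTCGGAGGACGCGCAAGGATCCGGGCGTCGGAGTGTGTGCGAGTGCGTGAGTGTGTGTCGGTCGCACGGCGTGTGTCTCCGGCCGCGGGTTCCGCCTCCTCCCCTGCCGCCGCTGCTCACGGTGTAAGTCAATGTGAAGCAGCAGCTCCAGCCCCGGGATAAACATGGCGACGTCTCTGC
The GC box occurs on the strand shown at positions -116 to -111 and -61 to -56 of the KLF6 window, counted from the start site. The ELF2 window also holds 2 matches, both on the other strand, at -219 to -214 and -204 to -199, outside the part under the region. At least 1 GC box on either strand was found in 56.3% of 22183 start-site windows of 15843 protein-coding genes, and at least 2 in 34.8%. Neither window held a CACCC box, the ETS core with its usual flank CCGGAAG or the TATA box TATAAA on either strand, which occurred in 63.4%, 12.8% and 9.47% of windows. The short GGAA core without that flank was not counted. It does occur in both windows, on the strand shown for KLF6 and on the other strand for ELF2. The windows of KLF6 and ELF2 had GC contents of 70.7% and 72.3%, against a median of 62.3% over all windows. No miRNA of the RefSeq table lay under any of the 17 regions.

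KLF3 (ENSG00000109787) lies on the plus strand of chromosome 4 from 38664199 to 38701517. Its single region, chr4:38700001-38701800, was 1800 bp wide and came from overexpressing cells. It covered the last 1517 bp of the gene and 283 bp beyond its end, with its midpoint at 98.3% of the one KLF3 transcript listed (ENST00000261438). No other gene lay under it. The antisense gene KLF3-AS1 was named for it only as the nearest other feature and did not reach it. The nearest control region was 166976 bp away, over FAM114A1. Chromosome 4 has 770 protein-coding genes, of which 332 (43.1%) were listed for control cells and 210 (27.3%) for overexpressing cells. Those listed for overexpressing cells only, as KLF3 was, numbered 25 (3.25%), and those for control cells only 147 (19.1%). Among the 43 genes of any type on chromosome 4 that were listed for overexpressing cells only, KLF3 ranked 6 by summed region width, where the median was 1180 bp. Regions across the end of a transcript were not rare: 65 of 517 pairs of an overexpression region and another named gene of chromosome 4 (12.6%) had that position.

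KLF6 (ENSG00000067082) lies on the minus strand of chromosome 10 from 3775996 to 3785209. Its single region, chr10:3783686-3785530, was 1845 bp wide and also came from overexpressing cells. It covered the first 1524 bp of the RefSeq gene and 321 bp upstream of it, and it crossed the start of all 4 KLF6 transcripts in the list. Its midpoint stood at 7.2% of the longest of these, ENST00000542957. No other gene lay under the region, and the nearest control region was 9860501 bp away, over FRMD4A. The region thus included the start site and the whole printed KLF6 window. Such a position was infrequent on chromosome 10. Of 984 start-site windows of 650 protein-coding genes on that chromosome, overexpression regions touched 2 (0.203%), and KLF6, chosen for its region, held the 1 window that was wholly covered. Most of these genes had no overexpression region at all, so this share does not describe where listed regions lie. Of 136 pairs of an overexpression region and another named gene of chromosome 10, 4 (2.94%) crossed a transcript start and 36 (26.5%) a transcript end. In width the region was unremarkable, since 35 of the 121 overexpression regions of chromosome 10 were at least as wide.

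NFKB2 (ENSG00000077150) lies on the plus strand of chromosome 10 from 102394110 to 102402529. Its 3 regions, all from overexpressing cells, followed each other at the end of the gene. The first 2, chr10:102400781-102400985 and chr10:102401191-102401395, were 205 bp wide and lay over NFKB2 alone, with midpoints at 80.5% and 85.4% of the longest transcript, ENST00000428099. The last, chr10:102401601-102403445, was 1845 bp wide and had its midpoint at the end of that transcript. It covered the last 929 bp of NFKB2 and reached 916 bp beyond, over the end of PSD, a guanine nucleotide exchange factor gene on the opposite strand. Without a strand for the region, this wide region cannot be given to NFKB2 rather than PSD, and the regions over NFKB2 alone sum to 410 bp of 2255 bp. The nearest control region, over CUEDC2, was 20091 bp away from the regions of NFKB2. Chromosome 10 has 734 protein-coding genes, of which 30 (4.09%) were listed for control cells and 67 (9.13%) for overexpressing cells. Like KLF6 and NFKB2, 53 genes (7.22%) were listed for overexpressing cells only, while 16 (2.18%) were listed for control cells only and 14 (1.91%) for both. Within the 69 genes of any type on chromosome 10 that were listed for overexpressing cells only, NFKB2 stood at the median summed width of 2255 bp and KLF6 below it.

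**Figure D1:**
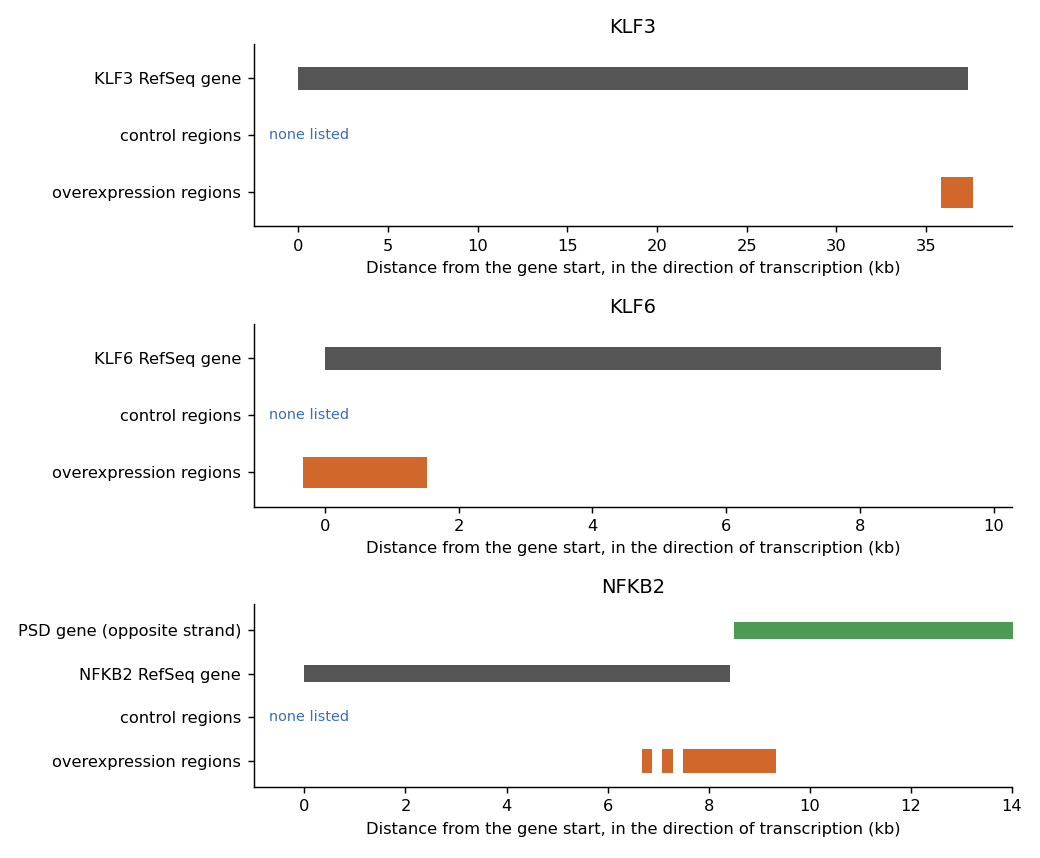
Maps of KLF3, KLF6 and NFKB2, with the distance from the RefSeq gene start in kb on the x axis and the gene, control regions and overexpression regions on separate lines. The 1 region of KLF3 and the 3 regions of NFKB2 sit at the gene end, the 1 region of KLF6 crosses the gene start, and no control region is listed for these genes; the widest region of NFKB2 also reaches PSD.

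ELF2 (ENSG00000109381) was the gene with regions in both lists. RefSeq places it on the minus strand of chromosome 4 from 139057220 to 139177915. Of the protein-coding genes of chromosome 4, 185 (24.0%) had regions in both lists. ELF2 had 8 control regions, 8770 bp in sum, and 4 overexpression regions, 5095 bp in sum. By summed width it ranked 14 of 430 genes with control regions on chromosome 4 and 9 of 268 with overexpression regions, where the medians were 2120 and 1425 bp. These ranks count regions beyond the RefSeq gene. Within the RefSeq gene the sums were 2365 bp (control) and 800 bp (overexpression), which were not ranked.

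Most of this length did not lie in the ELF2 gene as RefSeq draws it. In the control list 4 regions formed an almost continuous run, chr4:139045016-139046305, chr4:139046521-139048800, chr4:139048886-139050000 and chr4:139050176-139051895, with gaps of 215, 85 and 175 bp. In the overexpression list 3 regions lay over the same stretch, chr4:139044801-139047200, chr4:139049201-139049800 and chr4:139050601-139051895. The last region of the run ended at the same position in both lists. Region ends follow fixed bins, described below, so this is agreement to 1 bin and not to 1 base. All 7 of these regions lay beyond the 3′ end of the RefSeq gene, by at least 5324 bp. They were assigned to ELF2 through 1 transcript, ENST00000515489, which spans 139028112 to 139060595 and so extends past that end. The other 7 ELF2 transcripts in the lists end within the RefSeq gene.

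The stretch begins inside the last part of NOCT, the gene of nocturnin, a phosphatase under circadian control. NOCT lies on the plus strand from 139015781 to 139045939, and the first region of the run overlapped its end by 924 bp (control) and 1139 bp (overexpression). The other 5 regions of the run lay past the end of NOCT and over no other gene, and ELF2 alone is named for them. Between the run and the first region within RefSeq ELF2 there was a stretch with no region, 6020 bp long among control regions and 5905 bp among overexpression regions. The lists carry no strand, so RNA of ENST00000515489 and RNA of the opposite strand cannot be told apart. Of protein-coding genes with a region on chromosome 4, 25 of 332 for control cells (7.53%) and 14 of 210 for overexpressing cells (6.67%) had at least 1 region wholly outside the RefSeq gene. ELF2 and TACC3 were the genes with at least 3 such regions in both lists.

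Within RefSeq ELF2 the control list had 4 regions and the overexpression list 1. Control regions chr4:139057916-139058130, chr4:139058201-139058990 and chr4:139059001-139059400 lay at 98.3% to 99.3% of the longest transcript, ENST00000394235, separated by 70 and 10 bp. The overexpression region, chr4:139057801-139058600, lay at 99.2% and overlapped the first 2 of these by 615 bp in all. The remaining control region, chr4:139083401-139084360, stood apart, 24000 bp further towards the start of the gene. It crossed the starts of 4 shorter ELF2 transcripts, reached 136 bp before the internal start site of the printed ELF2 window and extended 824 bp into the gene from there. The nearest overexpression region was 24801 bp away. On chromosome 4, control regions touched 58 of 967 start-site windows (6.0%) and overexpression regions 23 (2.38%). With the regions of RefSeq ELF2 alone, summed widths were 2365 bp (control) and 800 bp (overexpression).

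**Figure D2:**
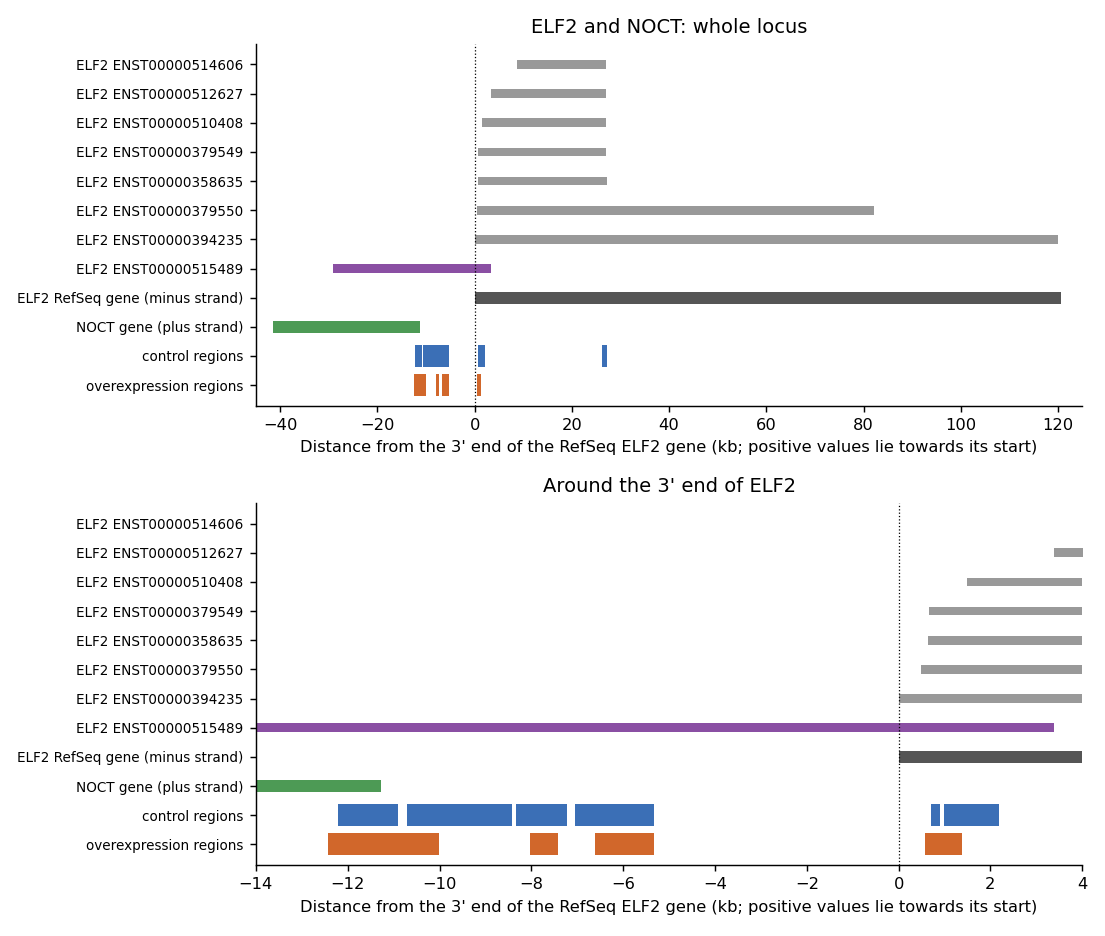
The ELF2 and NOCT locus, with the distance from the 3′ end of the RefSeq ELF2 gene in kb on the x axis (whole locus above, the 3′ end enlarged below) and gene spans, ELF2 transcript spans and the regions of each list on separate lines. Below 0, a run of 4 control and 3 overexpression regions starts over the end of NOCT and stops short of RefSeq ELF2, under transcript ENST00000515489; above 0, 4 control regions and 1 overexpression region lie in RefSeq ELF2.

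The regions of ELF2 in the 2 lists covered much of the same sequence. All 4 overexpression regions overlapped a control region, as did 319 of 491 overexpression regions of chromosome 4 (65.0%). Of the 8 control regions 6 overlapped an overexpression region, against 302 of 1185 on the chromosome (25.5%). The chromosome shares also count regions of genes in 1 list only, 147 protein-coding genes for control and 25 for overexpressing cells. ELF2 is in both lists, and the share over regions of such genes alone was not taken. The shared length was 4480 bp, 87.9% of the overexpression length and 51.1% of the control length of ELF2. These regions are close neighbours in 1 gene and not independent, and no test was made of the difference from the chromosome. Without ENST00000515489, an alternative chosen after seeing the data, 1 overexpression region and 2 of 4 control regions overlapped.

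The ratio of summed width, overexpression to control, was 0.581 for ELF2. Over the 225 genes of chromosome 4 in both lists the median ratio was 0.598, and the range 0.106 to 4.18, with 167 genes below 1. ELF2 was thus near the middle, with 110 genes below it. Covered length moves with how much was called, 1016 kb of chromosome 4 for control cells and 425 kb for overexpressing cells, and after scaling to these totals the ratio of ELF2 was 1.39 and the median 1.43. Within RefSeq gene spans the unscaled ratio of ELF2 was 0.338, with 38 of 195 genes below it and a median of 0.629. The widest region of ELF2 was 2280 bp among control and 2400 bp among overexpression regions, a ratio of 1.05.

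**Figure D3:**
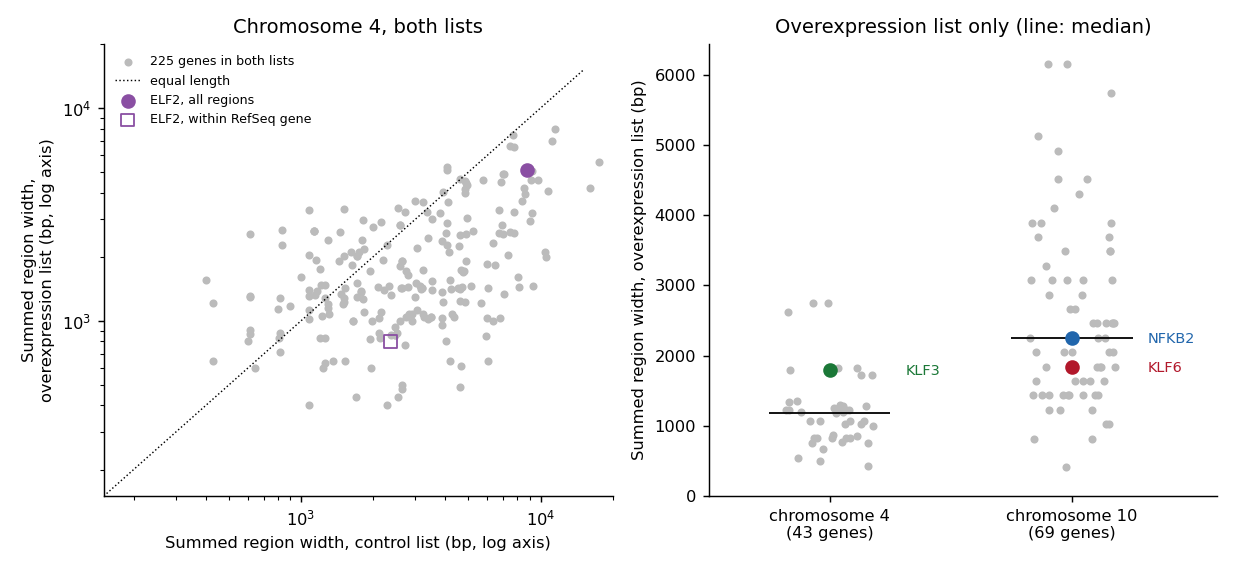
Left, summed region width per gene in bp on log axes for the 225 genes of chromosome 4 in both lists, control on the x axis and overexpression on the y axis; ELF2 lies at 8770 and 5095 bp with all regions (filled circle) and at 2365 and 800 bp within the RefSeq gene (open square). Right, summed width in bp on a linear axis for genes in the overexpression list only, with KLF3 (1800 bp) above the chromosome 4 median of 1180 bp and NFKB2 (2255 bp) at and KLF6 (1845 bp) below the chromosome 10 median of 2255 bp.

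Along transcripts, 6 of the 17 regions had their midpoint in the last 10% of the longest transcript of the gene that the list names for that region. They were the region of KLF3, the widest region of NFKB2, 3 control regions of ELF2 and 1 overexpression region of ELF2. Over other named genes of chromosome 4 the share was 38.8% for control regions and 42.4% for overexpression regions (95% Wilson intervals 36.1 to 41.7% and 38.2 to 46.7%). On chromosome 10 it was 47.1% for overexpression regions (38.9 to 55.4%) and 78.8% for the few control regions (62.2 to 89.3%), none of which lay over the 4 genes. These intervals cover counting error only and treat each pair of a region and a gene as independent. Many pairs share a gene or a region, so the intervals are too narrow. The 7 regions of the run beyond ELF2 were placed at 28.8% to 46.0% on ENST00000515489, the one ELF2 transcript named for them. They lie beyond the 3′ end of ENST00000394235, the longest ELF2 transcript in the lists.

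**Figure D4:**
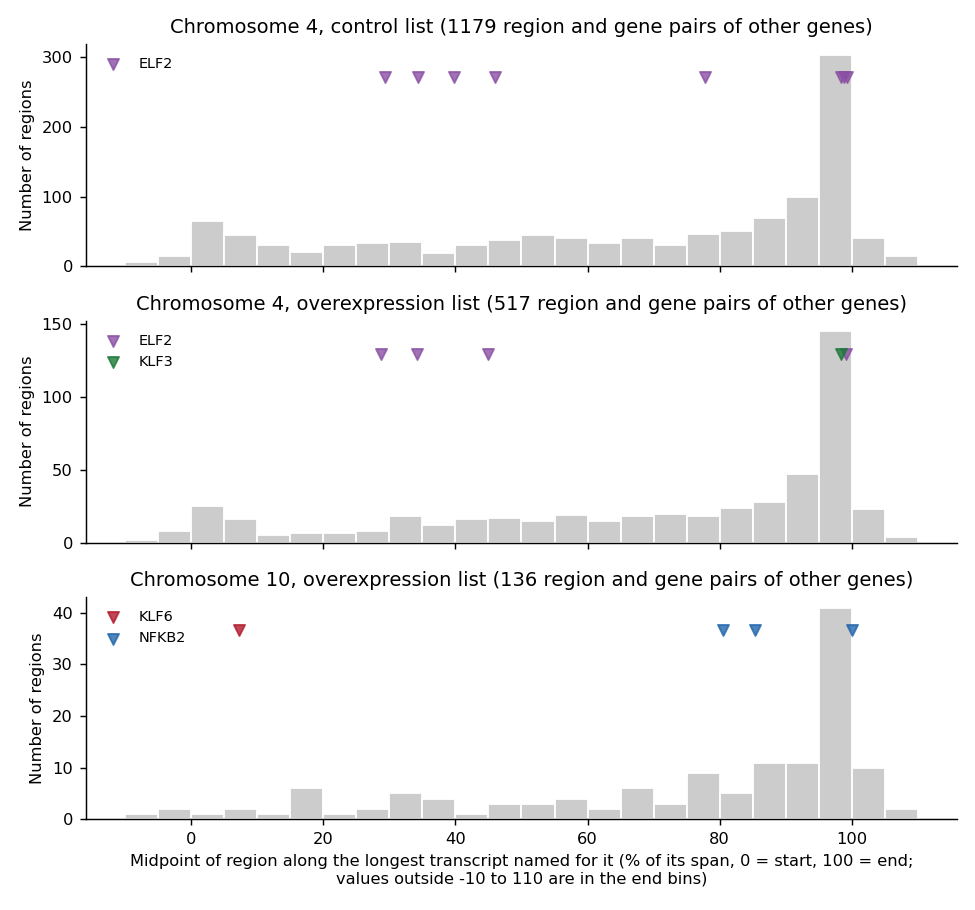
Number of regions by the position of the midpoint along the longest transcript named for the region, in % of its span, for other named genes (grey bars), with triangles for the regions of ELF2, KLF3, KLF6 and NFKB2 at no particular height. The region of KLF3 and the widest of NFKB2 fall in the tall bars at the transcript end, KLF6 stands at 7.2%, and 7 ELF2 regions at 28.8% to 46.0% belong to transcript ENST00000515489.

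The ends of the regions follow fixed bins, which sets their resolution. On chromosome 10 the ends of all 29 control and 121 overexpression regions were multiples of 205 bp, so that each of the narrow NFKB2 regions is a single bin, and the gaps of 205 bp between the 3 regions are single bins as well. On chromosome 4 the ends were multiples of 200 or 215 bp, with some regions having an end on each. Both ends of the KLF3 region and of 3 of the 4 overexpression regions of ELF2 were multiples of 200 bp. Of the 8 control regions of ELF2, 3 had both ends on multiples of 215 bp and 1 on multiples of 200 bp. Differences of less than 1 bin between the ends of regions are therefore below the resolution of the lists.

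Other genes of these families and pathways were set beside the 4. Of 27 KLF and SP family genes, KLF3 and KLF6 alone lie on chromosomes 4, 10 or 18, and ELF2 is the only one of 28 ETS family genes on these chromosomes. These families thus hold no further gene to set beside the chosen ones. Of 40 NF-kB pathway genes, 9 lie on them, and besides NFKB2, which was chosen for its regions, 4 of the other 8 had a region. They were 2 genes of chromosome 4, where 43.1% (control) and 27.3% (overexpression) of protein-coding genes were listed, and 2 of chromosome 18. None was on chromosome 10, where these shares were 4.09% and 9.13%. FBXW7, a ubiquitin ligase subunit with p100 among its targets, had 3 control regions (2105 bp) and 2 overexpression regions (1445 bp). TNIP2, an inhibitor of NF-kB signalling, had 2 in each list (1780 and 1380 bp). MALT1, a protease of antigen receptor signalling, had 8 overexpression regions (4065 bp), all of which also lie over unnamed genes, and TNFRSF11A, the receptor RANK, had 7 (2165 bp). Both lie on chromosome 18, which has regions of overexpressing cells alone, over 161 of its 270 protein-coding genes (59.6%). NFKB1, the paralogue of NFKB2, and TNIP3 on chromosome 4 had none, nor had CHUK and BTRC on chromosome 10, which act in the processing of p100.

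A list of 5 KLF3 corepressor partners, written with earlier results known, holds 2 genes of chromosomes 4, 10 and 18, CTBP1 and CTBP2. Each had regions in both lists, as did 24.0% of protein-coding genes of chromosome 4 (CTBP1) and 1.91% of chromosome 10 (CTBP2). CTBP1 had 6 in each list (6975 bp control, 4920 bp overexpression), and CTBP2 had 1 control region (1845 bp) and 3 overexpression regions (4920 bp). Of these, 3 control and 2 overexpression regions of CTBP1 also lie over CTBP1-AS, and all 3 overexpression regions of CTBP2 over ZRANB1. A list of 66 other transcription factors and cofactors of chromosomes 4, 10 and 18 was also written with earlier results known. Of these 66 genes, 24 had a region. The list is a partial selection, so its shares do not describe all transcription factors of these chromosomes. On chromosome 4, 9 of 19 were listed for control cells and 6 of 19 for overexpressing cells, beside 43.1% and 27.3% of all protein-coding genes. On chromosome 10, none of 28 was listed for control cells and 1 for overexpressing cells, beside 4.09% and 9.13%. That gene was LCOR, named after its values were seen because it stood alone among the 28. NKX6-2, ZNF22 and ZNF37A of chromosome 10 are not among the 28 and had overexpression regions (2050, 2460 and 2870 bp). They too were named after their values were seen, and genes off the list were not counted. On chromosome 18 overexpression regions lay over 13 of 19, beside 59.6%. The 4 with the largest width over both lists were CLOCK, a circadian activator (7475 bp control and 2605 bp overexpression, all also over TMEM165), LCORL (4915 and 4335 bp, partly over NCAPG), TCF4 (8700 bp, overexpression) and SMAD2 (8460 bp, overexpression).

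Genes with the most similar pair of summed widths were found on the same chromosome, by the distance between log2(width + 1 bp) in the 2 lists, so likeness rests on 2 values. For ELF2 these were UBE2D3, a ubiquitin-conjugating enzyme (9240 and 5070 bp, distance 0.08), CCNI, cyclin I (9155 and 4570 bp, 0.17) and IGFBP7, a secreted binding protein of growth factors (9775 and 4595 bp, 0.22), out of 356 protein-coding genes. For KLF3 they were TBC1D14 (1820 bp, distance 0.02), VEGFC (1720 bp, 0.07) and TIGD2 (1350 bp, 0.41), all listed for overexpressing cells only. On chromosome 10, INPP5A, PIP4K2A and SH3PXD2A had exactly the width of KLF6 (1845 bp), and 1 more gene was tied with them. PDZD7 had exactly that of NFKB2 (2255 bp), followed by HPS6 and OGA (2460 bp, distance 0.13), with 2 more genes tied at the last distance. Equal widths are frequent there because every width on chromosome 10 is a multiple of 205 bp.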

How the data were processed

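Reads were handled with bcl2fastq 2.19.0, Trimmomatic 0.36 and HISAT2 2.1.0 on GRCh38 (hg38), per the submitters' processing notes. Per the labels, RNA was enriched for poly(A) before library construction. How regions were called, at which threshold, against which background and from which replicates is not given in the sources used here. Both deposited tables hold positions, widths and distances in bp, repeated for every transcript, per the file headers.

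Each region was counted once per gene it lay inside or overlapped, and genes named only as nearest were left out. Overlap between lists meant at least 1 bp. Positions were taken on the longest transcript of the gene that the list names for that region. Gene spans, types and start-site windows came from RefSeq (GRCh38.p14), matched by symbol or unique older name; 3 of the 4 genes had a start-site window. Named genes were the 4 genes, genes under the same regions, genes of the family lists with a region (for lists with over 10 such genes, the 4 with the largest summed width) and the 3 nearest genes by summed width. The genes, lists and settings were chosen with earlier results of these data known. No test was made, since no value per replicate was given. Python 3.11.15, pandas 2.3.3, numpy 2.4.6, statsmodels 0.14.6 and matplotlib 3.10.9 were used.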

Additional observations from a re-analysis of the deposited data

How the results depend on the processing

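No paired analysis was possible because the deposited lists hold no value per replicate, and for the same reason no replicate could be left out. Of 58 alternative values, 37 stayed within 1.5 times the reported value, including all those of KLF3 and KLF6. Each of these genes has 1 region, which lies over no other gene. Joining neighbours, the widest region and regions over 1 gene only could therefore not change their values. When neighbours at most 1000 bp apart were joined, ELF2 had 3 control regions in place of 8 and NFKB2 had 1 in place of 3. Without transcript ENST00000515489, an alternative chosen after seeing the data, ELF2 kept 4 control regions and 1 overexpression region, of which 2 and 1 overlapped the other list, and 2365 and 800 bp. Counting only the part within the RefSeq gene gave the same 2365 and 800 bp for ELF2 and 1339 bp for NFKB2. The widest region alone was 2280 and 2400 bp for ELF2. With regions over 1 gene only, ELF2 kept 2695 bp in the overexpression list, NFKB2 410 bp, and 5.59% of protein-coding genes of chromosome 10 had an overexpression region. The ELF2 ratio of overexpression to control, 0.581, was 0.338 within the gene and without ENST00000515489, 0.36 over 1 gene only, and above 1 with the widest region (1.05) and after scaling to covered length (1.39). The lists hold no counts and no strand, which limits what can be read from them.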
